A study of Rattus norvegicus with 30 samples.

Results

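The proteasome genes of the rat liver array were taken as all genes whose only annotated symbol begins with Psma, Psmb, Psmc, Psmd, Psme, Psmf or Psmg. This rule gave 46 genes with 60 probe sets, out of 14217 genes with a single symbol and 31042 probe sets tested. The 46 genes fell into 13 genes of the 20S core, 19 genes of the 19S cap, 3 genes of the immunoproteasome, 4 genes of activators and an inhibitor, 5 genes of assembly chaperones, and 2 genes (Psmc3ip and Psme3ip1) whose names match the rule but whose products are interacting proteins rather than subunits. Where a gene had several probe sets, the one with the highest mean over all arrays stood for it. Psmb6 and Psme3 were not counted because their probe sets carry several symbols, and no probe set carried Psma8 or Psmb11 alone.

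The proteasome is the large barrel-shaped protease that degrades proteins tagged with ubiquitin in the cytosol and nucleus. Its 20S core is built of Psma rings, which gate the barrel, and Psmb rings, which hold the proteolytic sites, while the 19S cap of Psmc ATPases and Psmd subunits recognizes, unfolds and feeds in the tagged protein. In cells exposed to interferon, the catalytic subunits Psmb5, Psmb6 and Psmb7 are replaced by Psmb8, Psmb9 and Psmb10 to form the immunoproteasome, which produces peptides for display on class I molecules, and dedicated chaperones assemble the particle without remaining in it.

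The left liver lobes came from 30 Sprague-Dawley rats, all female and aged 10 wk, and their RNA was measured on a 3′ expression array, 1 rat per array, with 10 rats in each of 3 groups. The control rats were not subjected to handling and were killed on day 2. Rats handled for 1 day were weighed, restrained in a Broome restrainer, given water by oral gavage and bled from the tail vein at 1, 2, 4 and 8 hours after the dose, and were also killed on day 2. Rats handled for 4 days had the same daily handling and gavage, with the bleeds on day 4, and were killed on day 5. No unhandled rats were killed on day 5, so day and handling cannot be told apart in that group, and the separate steps of the procedure cannot be told apart in either. Both handled groups were compared with the same 10 control rats, so the 2 comparisons are not independent.

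All arrays had a mean intensity of 1 as deposited, so intensities are relative to the mean of the array, and the level of one probe set was not compared with that of another. Correlations between arrays ran from 0.9462 to 0.9755 and no 2 arrays were identical. Hepatocyte markers were present throughout, with a summed intensity of 360 to 415 for the 7 measured of 8 listed and none past the test in either comparison with control. For Gapdh, the 3′ control probe set exceeded the 5′ one, a sign of RNA integrity and labeling, by a log2 value of 0.55 to 0.70 in control livers, 0.66 to 0.83 with 1 day of handling and 0.70 to 0.96 with 4. This Gapdh ratio exceeded that of every control rat in 7 rats handled for 1 day and in all 10 rats handled for 4 days. Control rats 1, 2 and 3 stood apart from the other 7 controls in several of the genes described here. Many results for named proteasome genes are given with and without them, while gene lists outside the proteasome are given with all rats only.

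Most proteasome genes were close to the control level in the handled rats. The chaperone Psmd9 was lower and passed the test after 4 days, and the immunoproteasome genes Psmb8 and Psmb9 were lower on average without passing it. The study lists Psmd9 among genes with raised expression, whereas in the deposited intensities it was lower in both handled groups. The study also lists Uchl3, Bag1 and Cd7 as raised, and these too were lower in both handled groups. Uchl3 and Bag1 are given further on, and the log2 change of Cd7 was -0.23 after 1 day and -0.62 after 4 days. C1qc, which the study describes as increased, was at -0.03 and -0.38. In limma's test with Benjamini-Hochberg adjustment over all 31042 probe sets, 0 of the 46 genes passed an adjusted p of 0.1 after 1 day of handling, where 28 probe sets (0.0902%) passed in all. After 4 days 1 of the 46 genes passed, Psmd9, where 204 probe sets (0.657%) passed in all. Between the rats handled for 4 days and for 1 day 0 of the 46 genes passed, and 0 probe sets (0%) passed in all. At an unadjusted p of 0.05, 6 of the 46 genes differed after 1 day against 9.33% of all probe sets, 2 of them higher and 4 lower. After 4 days 11 of the 46 differed at that threshold against 11.3% of all probe sets, 4 higher and 7 lower, and 0 of 46 differed between the handled groups. Of the 4557 genes at least as bright as the dimmest subunit or chaperone, 356 were higher and 335 lower at that threshold after 1 day. After 4 days 348 of these were higher and 384 lower, a larger share than over all probe sets. The t-test of the methods and the exact rank-sum test, each after Benjamini-Hochberg adjustment, called 0 of the 46 genes after 1 day, where they called 0.177% and 0.0902% of all probe sets. After 4 days they called 0.49% and 0.499% of all probe sets and 1 of the 46 genes, Psmc3ip, but not Psmd9 (adjusted p = 0.161 and 0.146). The handled rats were separated entirely from the control rats in 0 of the 46 genes in either comparison, against 0.0193% of all probe sets after 1 day and 0.0322% after 4 days. The median log2 change over the 46 genes was 0.01 after 1 day and 0.02 after 4 days, beside -0.02 and -0.01 over all 14217 genes with a single symbol.

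**Figure D1:**
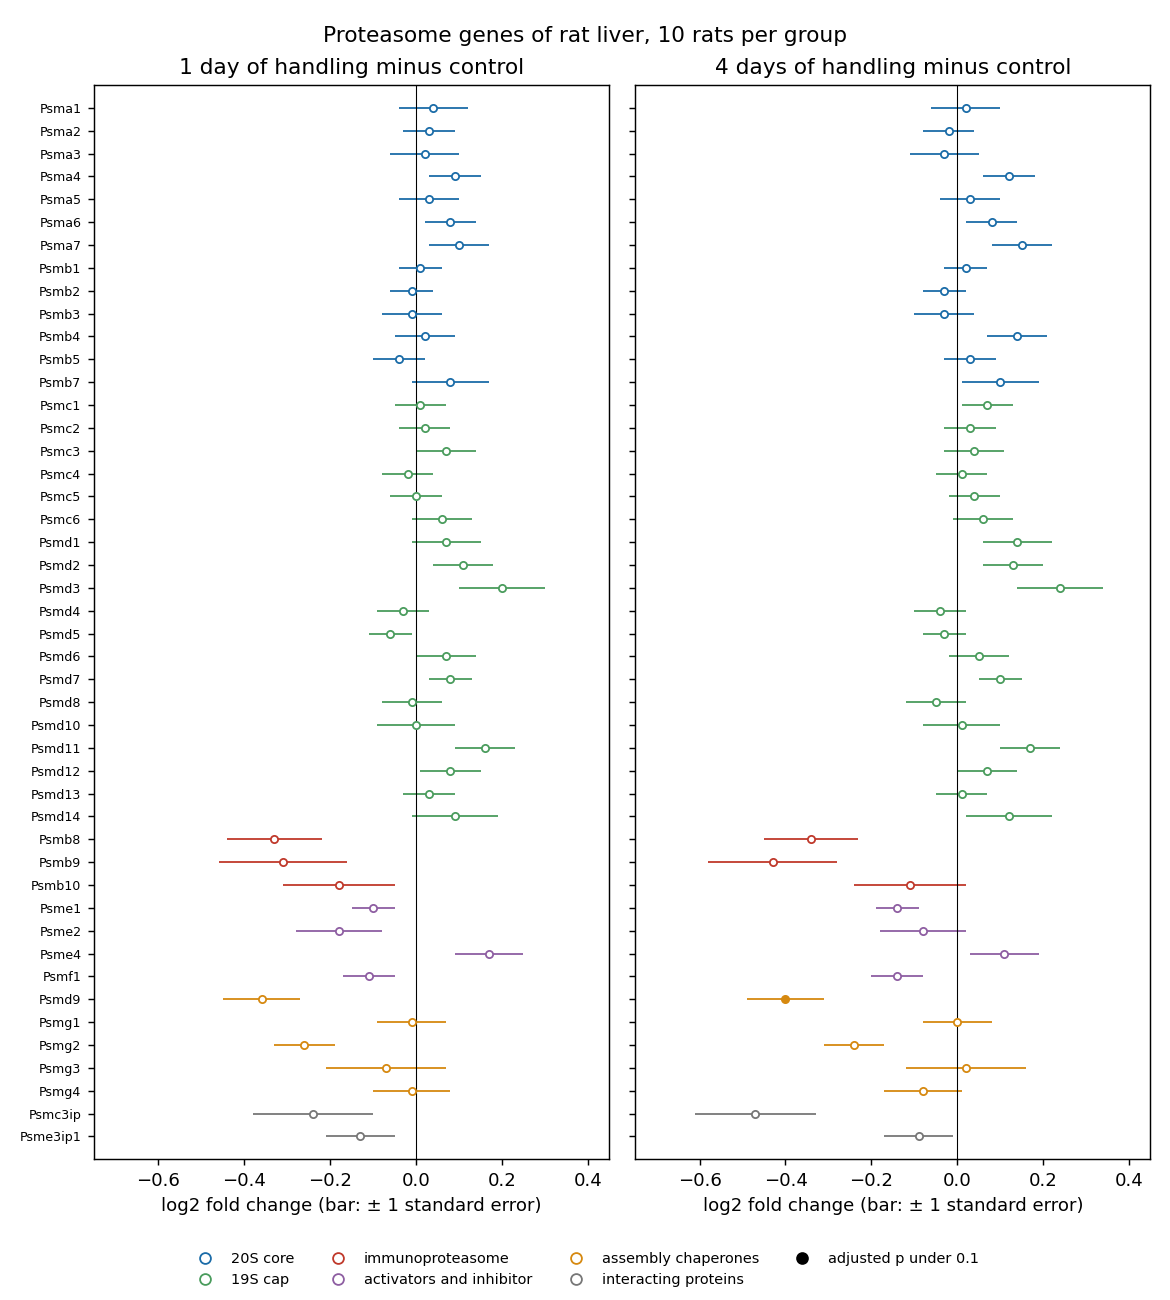
Log2 fold change of each proteasome gene after 1 day (left) and 4 days (right) of handling against the same 10 control rats; points are limma estimates, bars 1 standard error, colors the gene classes, and the filled point an adjusted p under 0.1. The core and cap genes lie between -0.06 and 0.24, while Psmb8, Psmb9, Psmd9, Psmg2 and Psmc3ip lie at or below -0.24 in both panels.

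The 20S core and the 19S cap, which carry out degradation itself, stayed near the control level. The median change of the 13 core genes was 0.03 after 1 day and 0.03 after 4 days on the log2 scale, with a range of -0.04 to 0.10 and of -0.03 to 0.15. The median change of the 19 cap genes was 0.06 and 0.05, with a range of -0.06 to 0.20 and of -0.05 to 0.24. None of these 32 genes passed the adjusted test in any of the 3 comparisons, and 25 of 32 had an estimate above 0 in each comparison with control, against 45.7% and 46.3% of all genes with a single symbol. Without control rats 1, 2 and 3 the estimate was above 0 in 13 of 32 after 1 day and in 15 of 32 after 4 days, against 45.1% and 46% of all genes, so the excess of higher estimates rested on those 3 rats. The 95% interval of the change lay within a 1.25-fold difference in either direction for 31 of the 32 genes after 1 day, Psmd3 being the exception. It did so for 30 of 32 after 4 days, with Psmd3 and Psmd14, the deubiquitinating subunit of the cap, as the exceptions, and for all 32 between the handled groups.

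In the core, the smallest unadjusted p-values belonged to outer-ring subunits and to Psmb4, a non-catalytic subunit of the inner ring. Psma7 intensity in the control rats was 6.49 at the lowest, 8.73 at the median and 9.49 at the highest, against 7.93, 9.0 and 10.2 after 1 day and 8.08, 9.11 and 10.6 after 4 days. The groups overlapped across most of their range, and the lowest value was that of a control rat. The log2 change of Psma7 was 0.10 ± 0.07 (SE, unadjusted p = 0.185 in limma) after 1 day and 0.15 ± 0.07 (unadjusted p = 0.0487, adjusted p = 0.438) after 4 days. Without control rats 1, 2 and 3 it was 0.00 and 0.05. Psma4 changed by an estimated 0.09 and 0.12, Psma6 by 0.08 and 0.08, and Psmb4 by 0.02 and 0.14, none with an adjusted p under 0.474. Without control rats 1, 2 and 3 these were 0.06 and 0.09, -0.01 and 0.00, and -0.06 and 0.06. Psmb5 and Psmb7, whose products occupy catalytic sites that the immunoproteasome subunits take over, had estimates of -0.04 and 0.08 after 1 day and of 0.03 and 0.10 after 4 days.

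In the cap, the highest estimates were those of Psmd3 and Psmd11, both scaffold subunits of the lid. Psmd11 intensity was 3.72, 4.88 and 5.59 (lowest, median, highest) in the control rats, 4.44, 5.17 and 6.11 after 1 day and 4.86, 5.35 and 5.59 after 4 days. The 3 lowest control values were those of control rats 1, 2 and 3 at 4.23, 3.72 and 3.96, all below the other 27 rats. The log2 change of Psmd11 was 0.16 ± 0.07 (unadjusted p = 0.0326) and 0.17 ± 0.07 (unadjusted p = 0.0242) in limma, with adjusted p-values of 0.489 and 0.344, and a second probe set of the gene gave 0.21 and 0.21. The remaining probe set, very dim at 0.0148 to 0.0473, gave 0.22 and 0.41. Psmd3 showed the same arrangement, with control rats 1, 2 and 3 at 1.28, 1.33 and 1.69 against 1.90 to 2.49 in the other 27 rats. Its log2 change was 0.20 ± 0.10 after 1 day and 0.24 ± 0.10 after 4 days (adjusted p = 0.536 and 0.324 in limma). Without control rats 1, 2 and 3 the estimates fell to 0.02 and 0.06 for Psmd3 and to 0.06 and 0.07 for Psmd11. Psmd2, which binds ubiquitin-like domains at the base, was estimated at 0.11 and 0.13 with all rats and at 0.06 and 0.08 without those 3.

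Control rats 1, 2 and 3 were all below the other 7 controls in 3 of the 13 core genes (Psma6, Psma7 and Psmb1) and in 5 of the 19 cap genes (Psmc3, Psmd1, Psmd3, Psmd6 and Psmd11), and above them in none. The share of all probe sets that separate these rats is not given here. Such counts are therefore not read as particular to proteasome genes. Psmd5 and Psmd10 are counted with the cap by name, although their products, like that of Psmd9, are known as chaperones that assemble its base. Psmd5 was estimated at -0.06 and -0.03 and Psmd10 at 0.00 and 0.01. Among the 6 ATPases, Psmc1 to Psmc6, estimates ran from -0.02 to 0.07 after 1 day and from 0.01 to 0.07 after 4 days. A second probe set of Psmc4, at 0.0211 to 0.149 a dim one, gave 0.48 and 0.74 (adjusted p = 0.52 and 0.171 in limma), while the brighter one that stands for the gene gave -0.02 and 0.01. The sign of the change was shared by all probe sets in 6 of the 9 genes with several probe sets after 1 day (not in Psmb5, Psmc4 and Psme1) and in 7 of 9 after 4 days (not in Psmd14 and Psme4).

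The activators open the barrel to other substrates, and Psmf1 is an inhibitor of the core. Psme1, a subunit of the interferon-inducible activator ring, had intensities of 13.1, 15.1 and 16.1 in the control rats, 12.9, 13.8 and 15.3 after 1 day and 12.5, 13.3 and 14.8 after 4 days. The groups overlapped, and all 10 rats handled for 4 days lay below the control median. The log2 change was -0.10 ± 0.05 (adjusted p = 0.535) after 1 day and -0.14 ± 0.05 (unadjusted p = 0.012, adjusted p = 0.271) after 4 days in limma, and it was -0.11 and -0.14 without control rats 1, 2 and 3. Psme2, its partner in the ring, had an estimate of -0.18 ± 0.10 and -0.08 ± 0.10, and of -0.05 and 0.04 without control rats 1, 2 and 3. Psmf1 had one of -0.11 ± 0.06 and -0.14 ± 0.06, and of -0.04 and -0.07 without those rats, which were all above the other 7 controls in this gene. Psme4, a separate single-chain activator, was the only gene of this class with estimates above 0, at 0.17 ± 0.08 and 0.11 ± 0.08, and control rats 1, 2 and 3 at 2.49, 2.49 and 3.02 were below the other 27 rats in it. Without them the Psme4 estimates were 0.06 and 0.00.

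The immunoproteasome genes were lower in the handled rats on average, and their levels differed more between rats than those of the core. Psmb8, which replaces the chymotrypsin-like subunit Psmb5, had intensities of 4.16, 5.44 and 7.38 (lowest, median, highest) in the control rats, 3.92, 4.44 and 5.12 after 1 day and 3.33, 4.44 and 6.58 after 4 days. All 10 rats handled for 1 day and 9 of 10 handled for 4 days lay below the control median, and the ranges overlapped. The log2 change was -0.33 ± 0.11 (95% interval -0.54 to -0.11) after 1 day and -0.34 ± 0.11 (-0.56 to -0.13) after 4 days, with unadjusted p-values of 0.00424 and 0.003 and adjusted p-values of 0.303 and 0.173 in limma.

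Psmb9, which replaces Psmb6, had intensities of 2.62, 2.97 and 5.96 in the control rats, 2.15, 2.71 and 3.81 after 1 day and 1.91, 2.44 and 3.74 after 4 days. The control range was stretched upward by control rats 1, 2 and 3, at 5.20, 5.96 and 4.57, which were above all other 27 rats (1.91 to 3.81). The log2 change was -0.31 ± 0.15 (adjusted p = 0.536) and -0.43 ± 0.15 (95% interval -0.74 to -0.12, unadjusted p = 0.00868, adjusted p = 0.245) in limma. Psmb10, which replaces Psmb7, had intensities of 1.16, 1.42 and 2.19 in the control rats, 1.08, 1.30 and 1.83 after 1 day and 1.02, 1.5 and 2.04 after 4 days. The 3 ranges lay almost on top of each other, with changes of -0.18 ± 0.13 and -0.11 ± 0.13 (adjusted p = 0.693 and 0.796 in limma).

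In all 3 immunoproteasome genes control rats 1, 2 and 3 were above the other 7 controls, with Psmb8 at 7.38, 6.87 and 6.40 and Psmb10 at 1.74, 1.98 and 2.19. The share of all probe sets that separate these rats is not given here, so the pattern is not read as particular to the immunoproteasome. Without these 3 rats the changes after 1 day and 4 days were -0.20 and -0.21 for Psmb8 (unadjusted p = 0.0708 and 0.0536 in limma), -0.05 and -0.17 for Psmb9, and -0.02 and 0.05 for Psmb10. The sizes given with all 30 rats therefore rested in part on 3 control rats. In whole liver, fewer cells of a type and less RNA per cell cannot be told apart, and the immunoproteasome is abundant in immune cells. The summed intensity of 12 listed T and NK cell markers had a median of 1.81 in control livers (range 1.37 to 2.26), 1.83 with 1 day of handling (range 1.46 to 2.05) and 1.54 with 4 days (range 1.24 to 1.91). After 4 days 10 of these 12 markers had estimates below 0 and 2, Cd7 and Nkg7, passed the test as lower. Of all 14217 genes with a single symbol, 7641 had estimates below 0 after 4 days and 64 passed as lower. The 8 measured Kupffer cell markers summed to a median of 27.9 (22.7 to 35.5), 28.6 (22.6 to 35.5) and 24.1 (20.1 to 27.6), with 6 of 8 lower after 4 days and none past the test. Their part in the immunoproteasome values was not tested.

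**Figure D2:**
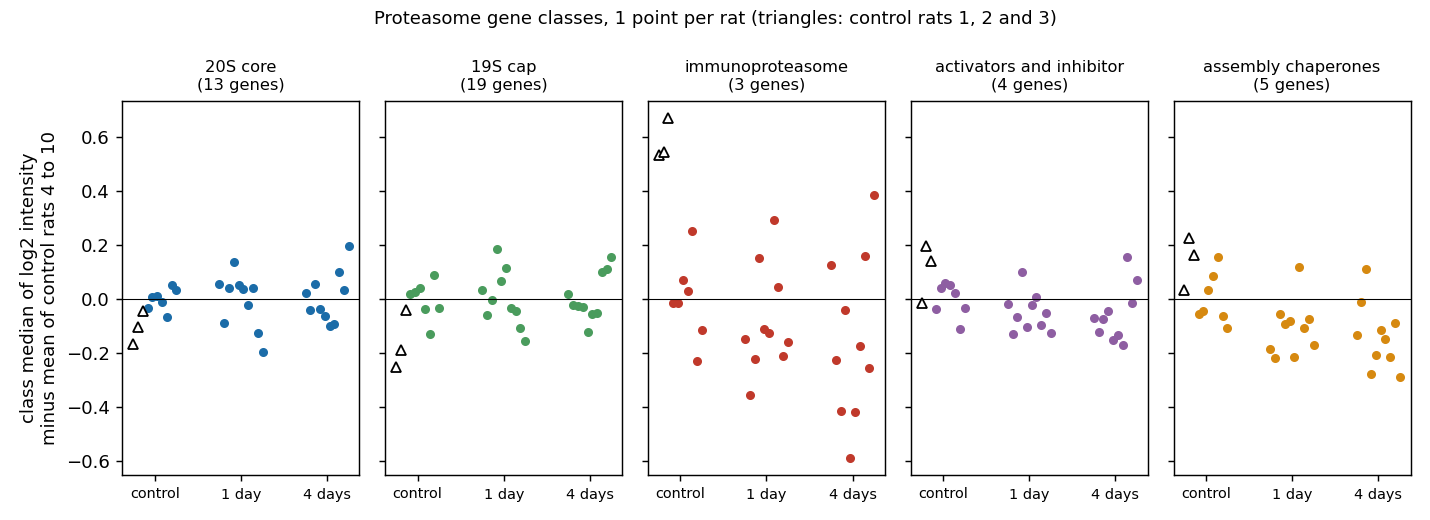
Median log2 intensity of each gene class in each rat, minus the mean of control rats 4 to 10; each point is a rat and triangles are control rats 1, 2 and 3. In the immunoproteasome panel the triangles lie at 0.54, 0.54 and 0.67, above the other controls (-0.23 to 0.25), while in the cap panel control rats 1 and 2 lie at -0.25 and -0.19.

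Beyond the group means, Psmb8, Psmb9 and Psmb10 varied together from rat to rat. After the mean of each group was removed, and over the 27 rats without control rats 1, 2 and 3, Pearson's r was 0.84 for Psmb8 with Psmb9 (Spearman's rho 0.806), 0.834 for Psmb8 with Psmb10 (rho 0.855) and 0.85 for Psmb9 with Psmb10 (rho 0.797). Each had a permutation p of 1e-05 for r, the smallest that 100000 permutations within groups can give, and an adjusted p of 3.33e-05 over the 10 pairs of Psmb8, Psmb9, Psmb10, Psme1 and Psme2. Without the 2 rats farthest from the median of the first gene, r was 0.761, 0.775 and 0.834. Of the other 7 pairs, Psmb9 with Psme1 had the highest r at 0.703 (rho 0.686) and Psme1 with Psme2 the lowest at 0.572 (rho 0.545, permutation p = 0.00131, adjusted p = 0.00131), and the r of the latter fell to 0.384 without the 2 farthest rats. The genes were measured on the same arrays, and the mix of cells in each liver was not measured apart from them.

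**Figure D3:**
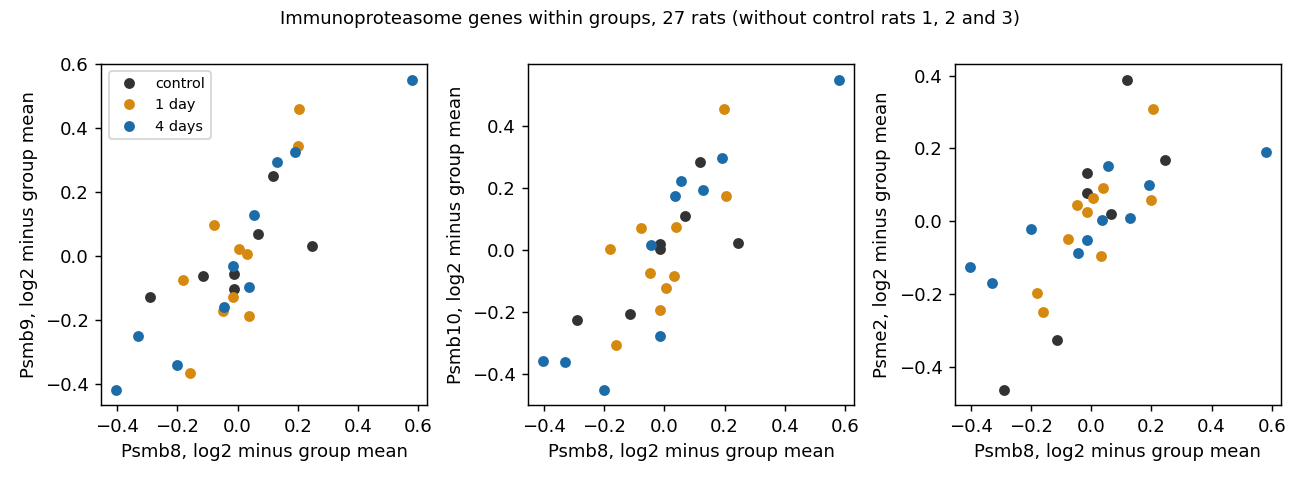
Psmb9, Psmb10 and Psme2 against Psmb8 in 27 rats (all but control rats 1, 2 and 3), each as log2 intensity minus the mean of its group; points are rats, colored by group. The points rise together in each panel, with r of 0.84 for Psmb9, 0.834 for Psmb10 and 0.699 for Psme2.

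Most pairs of core and cap genes were also positively correlated. As a description over the same 27 rats, the median r between 2 core genes was 0.574 (78 pairs), between 2 cap genes 0.539 (171 pairs) and between a core and a cap gene 0.481 (247 pairs). In these sets r was above 0 in 66, 169 and 234 pairs, and the lowest r was -0.269, -0.17 and -0.251. The median r over all genes, or over equally bright ones, is not given here. These values are therefore not read as particular to proteasome genes. Between core and immunoproteasome genes it was 0.334 (39 pairs), and between the 5 assembly chaperones and the core genes it was -0.014 (65 pairs). The median standard deviation within groups was 0.13 on the log2 scale for the core, 0.13 for the cap, 0.19 for the chaperones and 0.29 for the immunoproteasome, the last being 0.24 without control rats 1, 2 and 3.

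The start regions of the immunoproteasome genes are shown because these genes varied together and are known to be induced through interferon-responsive elements. The windows run from 250 bases before to 50 bases after the RefSeq start of each gene on the rat GRCr8 assembly, read 5′ to 3′ on the strand of the gene: Psmb8 at chr20:4656982-4657281, minus strand, Psmb9 at chr20:4668750-4669049, plus strand, and Psmb10 at chr19:50743243-50743542, minus strand. Capitals mark the letters GAAANNGAAA of an interferon-stimulated response element, searched on both strands.
Psmb8: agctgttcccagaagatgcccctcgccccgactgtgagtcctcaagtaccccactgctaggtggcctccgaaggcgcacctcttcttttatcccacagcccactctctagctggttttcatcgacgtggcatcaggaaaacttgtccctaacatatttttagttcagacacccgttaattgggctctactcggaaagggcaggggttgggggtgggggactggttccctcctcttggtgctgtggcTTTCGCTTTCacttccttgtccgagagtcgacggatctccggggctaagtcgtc
Psmb9: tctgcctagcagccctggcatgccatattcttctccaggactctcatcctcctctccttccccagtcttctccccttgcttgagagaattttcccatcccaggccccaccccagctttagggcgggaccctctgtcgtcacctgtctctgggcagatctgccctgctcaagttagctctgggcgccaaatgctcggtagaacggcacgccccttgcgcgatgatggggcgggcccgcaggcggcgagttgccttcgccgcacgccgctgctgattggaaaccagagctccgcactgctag
Psmb10: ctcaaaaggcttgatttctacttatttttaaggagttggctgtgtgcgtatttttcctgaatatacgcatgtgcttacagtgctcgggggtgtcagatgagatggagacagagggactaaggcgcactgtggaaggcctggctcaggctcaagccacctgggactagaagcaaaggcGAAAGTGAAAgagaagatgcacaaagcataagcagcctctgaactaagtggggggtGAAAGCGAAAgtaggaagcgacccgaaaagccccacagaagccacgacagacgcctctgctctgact
Psmb8 held 1 match, from -4 to 6 around the start, Psmb10 held 2, from -73 to -64 and from -17 to -8, and Psmb9 held none. Psme2 also held 1, from -53 to -44. Over the classes the motif was found in 7 of the 42 proteasome genes with a window in the RefSeq table (16.7%), against 1312 of all 33469 windows (3.92%). The other carriers were Psma4, Psmb3, Psmd7 and Psmg4. The letters TTCNNNGAA of a gamma-activated site, also on both strands, occurred in 4 of 42 (9.52%), among them Psmb8, against 8.87% of all windows, and matches of these 2 motifs overlapped in 14 of the 33469 windows. The CCAAT box occurred in 22 of 42 (52.4%), including 9 of 12 core genes, against 37.5% of all. Such matches describe letters in the window and not binding. On the RefSeq gene map Psmb8 and Psmb9 are neighbors on chromosome 20 in the order Tap2, Psmb8, Tap1, Psmb9, within the class II region of the histocompatibility complex, while Psmb10 lies on chromosome 19, and Psme1 and Psme2 lie on chromosome 15 with only Emc9 between them.

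The assembly chaperones held the only proteasome gene that passed the test. Psmd9 encodes a chaperone that binds ATPase subunits while the base of the cap is built and leaves before the particle is complete. Its intensity was 1.23, 1.5 and 2.33 (lowest, median, highest) in the control rats, 1.08, 1.24 and 1.32 after 1 day and 0.973, 1.18 and 1.57 after 4 days. All 10 rats handled for 1 day and 9 of 10 handled for 4 days were below the control median, but only 4 and 7 of them were below every control rat, so the groups overlapped. The log2 change was -0.36 ± 0.09 (95% interval -0.56 to -0.17), or 1.29-fold lower, after 1 day, with an unadjusted p of 0.000592 and an adjusted p of 0.19 in limma. After 4 days it fell by 0.40 ± 0.09 (95% interval of the change -0.60 to -0.21), 1.32-fold lower, with an unadjusted p of 0.000183 and an adjusted p of 0.0606 in limma. Between the handled groups Psmd9 differed by -0.04 ± 0.09 (adjusted p = 0.995 in limma). A second, dimmer probe set of Psmd9 (0.125 to 0.283) gave -0.22 and -0.18 (adjusted p = 0.525 and 0.559 in limma).

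Control rats 1, 2 and 3 had Psmd9 intensities of 1.99, 2.33 and 1.59, against 1.23 to 1.63 in the other 7 controls. Without them the change was -0.23 after 1 day and -0.27 after 4 days, and the adjusted p after 4 days was 0.148 in limma, so the call was lost, while the unadjusted p was 0.00856 and 0.00248. With the Gapdh ratio as a covariate the changes were -0.36 and -0.40, as in the fit without it, and the adjusted p-values were 0.535 and 0.385, with 0 and 5 probe sets called in all. This ratio was above that of every control rat in 7 rats handled for 1 day and in all 10 handled for 4 days. The ratio and handling therefore cannot be told apart by this fit. Leaving out control rat 1 or 3, or rat 3 or 5 of the 4-day group, also moved the adjusted p above the threshold, to 0.12, 0.105, 0.108 and 0.114. A fit with the replicate number as a block, given further on, lost the call too.

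Psmg1 and Psmg2 pair to build the outer ring of the core, as do Psmg3 and Psmg4. Psmg2 was the chaperone nearest to Psmd9 in its change, with intensities of 0.744, 0.829 and 1.00 in the control rats, 0.576, 0.746 and 0.808 after 1 day and 0.655, 0.694 and 0.885 after 4 days. All 10 rats handled for 1 day and 9 of 10 handled for 4 days were below the control median, and the ranges overlapped. The log2 change was -0.26 ± 0.07 (adjusted p = 0.241) and -0.24 ± 0.07 (adjusted p = 0.167) in limma, with unadjusted p-values of 0.0017 and 0.00279. Without control rats 1, 2 and 3 it was -0.20 and -0.19. Its partner Psmg1 was estimated at -0.01 ± 0.08 and 0.00 ± 0.08, with 95% intervals of -0.18 to 0.16 and -0.17 to 0.18. Psmg3 had estimates of -0.07 ± 0.14 and 0.02 ± 0.14, and single high rats widened its spread, at 1.59 in a control rat and 1.29 in a rat handled for 4 days, while the other rats of those groups lay at 0.593 to 0.76 and 0.607 to 0.906. Psmg4 was estimated at -0.01 ± 0.09 and -0.08 ± 0.09, and at -0.13 and -0.20 without control rats 1, 2 and 3. The median change of the 5 chaperones was -0.07 and -0.08.

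**Figure D4:**
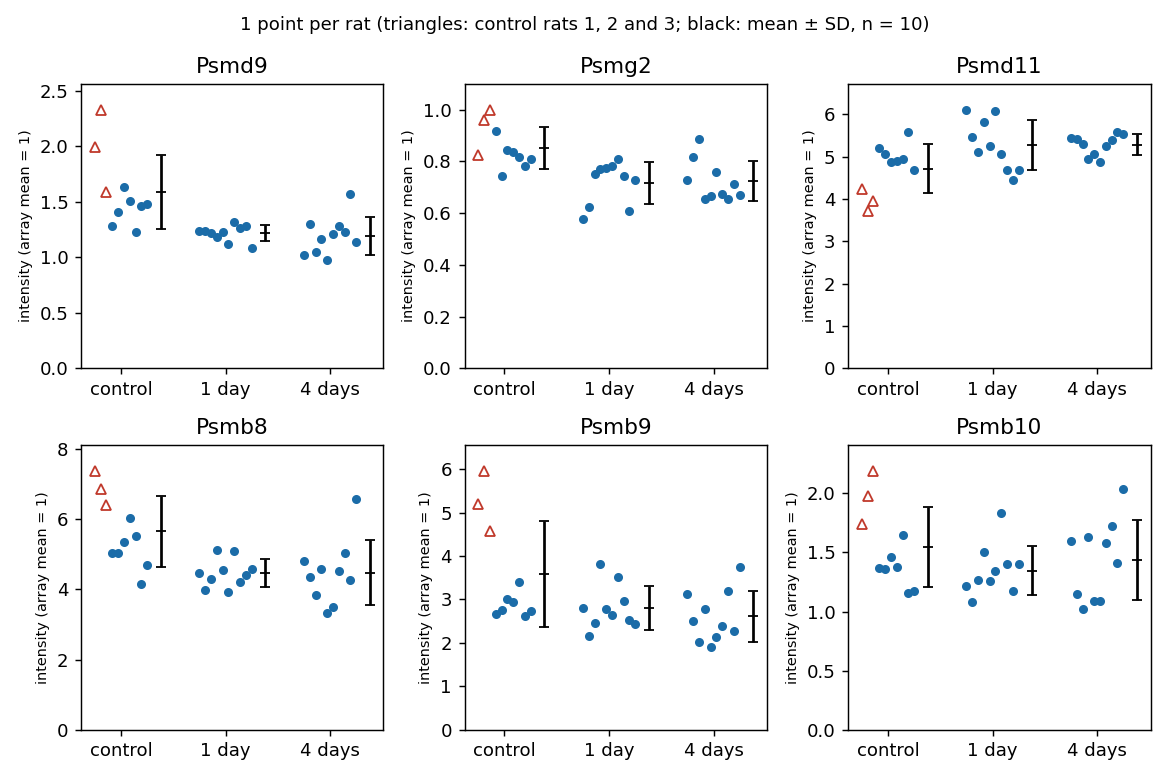
Intensity (array mean set to 1) of 6 proteasome genes in each rat by group; triangles are control rats 1, 2 and 3, and the black bars are the mean ± SD of 10 rats. For Psmd9 the triangles lie at 1.99, 2.33 and 1.59 and the rats handled for 1 day within 1.08 to 1.32; for Psmb9 the triangles lie above all other rats, and for Psmd11 below them.

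Psmc3ip, which acts in meiotic recombination, had a dim signal, at 0.0737 to 0.188 in all rats. Its change was -0.24 ± 0.14 after 1 day and -0.47 ± 0.14 (unadjusted p = 0.00162, adjusted p = 0.14 in limma) after 4 days, and all 10 rats handled for 4 days were below the control median. It was called lower after 4 days by the exact rank-sum test (adjusted p = 0.0976). Without control rats 1, 2 and 3 the change of Psmc3ip was -0.32 and -0.55 (adjusted p = 0.103 after 4 days in limma). Psme3ip1, whose product binds the activator Psme3, was estimated at -0.13 ± 0.08 and -0.09 ± 0.08.

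The partners of the proteasome in the ubiquitin system had estimates on both sides of 0. Of 50 listed genes 41 were measured, with a median log2 change of 0.02 after 1 day and 0.04 after 4 days, and 0 of 41 and 1 of 41 passed the test. At an unadjusted p of 0.05, 10 of the 41 differed after 1 day, 5 higher and 5 lower, and 16 of the 41 after 4 days, 10 higher and 6 lower, against 9.33% and 11.3% of all probe sets. The share was larger among the 4557 genes at least as bright as the dimmest subunit or chaperone. Of these 356 were higher and 335 lower after 1 day, and 348 and 384 after 4 days. The gene that passed was Uchl3, a ubiquitin hydrolase, at -0.23 ± 0.06 (adjusted p = 0.223) after 1 day and -0.25 ± 0.06 (adjusted p = 0.0902) after 4 days in limma. Its intensities of 1.71, 1.88 and 2.10 in the control rats compared with 1.44, 1.58 and 1.80 and with 1.29, 1.57 and 1.73. Bag1, a cochaperone that couples Hsp70 to the proteasome, was estimated at -0.17 and -0.12, Ubqln2, a shuttle for ubiquitinated proteins, at 0.13 and 0.22, and Akirin2, which guides proteasomes into the nucleus, at -0.24 and -0.44, without passing the test.

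The class I presentation and interferon genes had a median change of -0.16 after 1 day and -0.33 after 4 days over the 21 measured of 22 listed, with 0 and 1 past the test. After 4 days 17 of 21 estimates were below 0, beside 7641 of all 14217 genes with a single symbol. Oas1a, an antiviral interferon-induced enzyme, was the one that passed, at -0.53 ± 0.28 (adjusted p = 0.586) and -1.24 ± 0.28 (adjusted p = 0.0545) in limma. Its intensity was 0.275, 0.584 and 1.13 in the control rats and 0.142, 0.241 and 0.792 after 4 days, and the ranges overlapped. Mx2, Isg15 and Irf7, all induced by interferon, were estimated at -0.91, -1.01 and -0.64 after 4 days and did not pass.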

How the data were processed

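RNA from 30 rat livers was measured on an Affymetrix rat genome array. The authors labeled RNA by 3′ in vitro transcription, processed the arrays in Rosetta Resolver and deposited 1 linear intensity per probe set and array. That each array was scaled to a mean of 1 is read from the values. Of 31099 probe sets, 57 array controls were left out and 31042 tested, of which 20826 carry 1 symbol in the platform annotation, 436 several and 9780 none. Intensities were turned to log2 with no offset and no filter on low values, and 3 groups were fitted together with lmFit and eBayes of limma 3.58.1 in R 4.3.3, two-sided, with Benjamini-Hochberg adjustment over all probe sets and a call at an adjusted p under 0.1. The study's own gene list joined an ANOVA of the 3 groups at an unadjusted p of 0.001 with a non-parametric test of pairs of groups. The methods give a looser cutoff for the latter. Both used log ratios to the control mean. Groups came from the sample labels. The number of arrays, the signal level and the spread between rats limit the precision, and intensities carry no read depth.

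Correlations were computed in Python 3.11.15 with numpy 2.4.6 and figures drawn with matplotlib 3.10.9. The fit was tested on simulated data. The members, classes and lists were chosen with earlier results of these data known. Named were Psmd9, the Psmg genes, Psmb8, Psmb9, Psmb10, called members, the 3 members of each class with the smallest unadjusted p in either comparison with control, and likewise up to 4 genes of each list outside the members; others are named to account for classes, probe sets, intervals and control rats, and were chosen after their values were seen. The lists were ubiquitin-proteasome partners, class I presentation and interferon, and markers of hepatocytes, Kupffer cells, T and NK cells, neutrophils, B cells, stellate cells, sinusoidal endothelium, erythroid cells and bile duct epithelium. In the last 6 of these, 0 genes passed the test in either comparison with control. Replicate numbers were not used to pair rats. Gene names, neighbors and start windows came from the RefSeq tables of GRCr8, which held all 46 genes and windows for 42. Alternatives covered offsets, normalization, weights, covariates, rats, tests, filters and thresholds.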

Additional observations from a re-analysis of the deposited data

Results flagged for a closer look

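In Psmg3, a chaperone of core assembly, control rat 2 had an intensity of 1.59, while the other 9 control rats lay at 0.593 to 0.76. Rat 2 of the group handled for 4 days had 1.29, while the other 9 lay at 0.607 to 0.906. These were the 2 values, among 63 groups of 10 rats checked, that lay farther from their nearest neighbor than Dixon's critical share of the range, a limit that chance passes in about 5% of groups. Both rats carry the same replicate number, and whether rats that share a number are linked was not settled.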

How the results depend on the processing

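Psmd9 kept its direction under every alternative run, at -0.40 to -0.20 after 1 day and -0.45 to -0.23 after 4 days, with an adjusted p of 0.0848 to 0.669 and of 0.026 to 0.489. The count of called proteasome genes after 1 day, 0 in the fit reported, was 1 (Psmd9) with an offset of 1, without the dimmest 40% of probe sets and at an unadjusted p of 0.001. After 4 days the count of 1 became 3 (Psmd9, Psme1 and Psmg2) with an offset of 1, 4 (Psmb8, Psmc3ip, Psmd9 and Psmg2) without the dimmest 40%, and 2 (Psmc3ip and Psmd9) with 1 probe set per gene. It became 0 with array weights, with the replicate number as a block, with only the 2 groups compared, and at an adjusted p of 0.05. It also became 0 with the Gapdh ratio as a covariate, without control rats 1, 2 and 3, and with both of these together (chosen after seeing the data). The t-test of the methods and the rank-sum test called 1 gene, Psmc3ip, in place of Psmd9. Leaving out 1 rat at a time gave 0 to 2 genes: 0 without control rat 1 or 3 or rat 3 or 5 of the 4-day group, and 2 (Psmb8 and Psmd9) without rat 10 of that group. The cause was not tested.

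The correlation of same-numbered deviations exceeded 0.1 in 1 of 30 pairs, with medians of 0.0411, 0.0435 and 0.051 across the pairs of groups. The best match among control rats had the same number for 6 of 10 rats handled for 1 day and 2 of 10 handled for 4 days. Between the handled groups it did so for 5 of 10. Each rat had 10 candidates, and random matching would give fewer such matches on average. Whether rats that share a number are linked was not settled, and the main fit did not pair them. With the replicate number as a block, 0 proteasome genes were called after 1 day, 0 after 4 days (Psmd9 at -0.40, adjusted p = 0.114) and 0 between the handled groups.

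The median change of the chaperones after 4 days moved to -0.19 without control rats 1, 2 and 3, that of the activators and inhibitor after 1 day to 0.04 over all probe sets, and that of the interacting proteins after 4 days to -0.05 with an offset of 1. All 10 correlations kept their direction and side of the threshold in 30 rats and after quantile normalization. In 30 rats r was lower for Psmb8 with Psme1 (0.396) and for Psmb9 with Psme1 (0.42).

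Over all 46 genes, the sign of the estimate turned in 15 after 1 day and 14 after 4 days without control rats 1, 2 and 3, and in 8 and 4 with the Gapdh ratio as a covariate; none of these estimates was called. Among the genes named by rule, the sign turned without control rats 1, 2 and 3 after 1 day for Psma6 (-0.01), Psma7 (0.00), Psmb4 (-0.06) and Psmg3 (0.10), and after 4 days for Psma6 (0.00), Psmb10 (0.05) and Psme2 (0.04). With the Gapdh ratio added to that fit the sign turned after 1 day for Psma6 (-0.06), Psma7 (-0.02), Psmb4 (-0.08) and Psmd3 (-0.02). In the same fit it also turned after 1 day for Psmb10 (0.03), Psme2 (0.02), Psme4 (-0.03), Psmg1 (0.11) and Psmg3 (0.20). After 4 days it turned there for Psma6 (-0.07), Psmb10 (0.11), Psme2 (0.13) and Psme4 (-0.09). With the Gapdh ratio alone the sign turned after 1 day for Psmg1 (0.10), Psmg3 (0.00) and Psmg4 (0.02). Array weights turned Psmb4 (-0.01) and Psmg3 (0.02) after 1 day. Cyclic loess turned Psmb4 (0.00) after 1 day and Psmg1 (0.00) after 4 days. Leaving out 1 rat gave ranges across 0 after 1 day for Psmb4 (-0.01 to 0.04), Psmg1 (-0.04 to 0.03), Psmg3 (-0.10 to 0.06) and Psmg4 (-0.05 to 0.04), and after 4 days for Psmg1 (-0.02 to 0.04) and Psmg3 (-0.07 to 0.14). In Psmg3 after 1 day, the rat that turned the sign was control rat 2. Of the single-gene results under alternatives, 1939 kept direction and side of the threshold, 12 gained a call, 13 lost it and 57 turned sign.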

Other observations

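Pairs of the immunoproteasome genes with Tap1 and Tap2, the peptide transporter genes beside Psmb8 and Psmb9 on chromosome 20, were added after the values were seen. Over the same 27 rats r ran from 0.336 (Psmb10 with Tap1, rho 0.356, permutation p = 0.114) to 0.625 (Psmb9 with Tap1, rho 0.554, permutation p = 0.00213, adjusted p = 0.0128 over 6 pairs).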
